A study of Mus musculus with 18 samples.

Results

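Iron storage and transport genes were followed through leukocytes that stayed in an inflamed joint or ear and leukocytes that left for the draining lymph node. The 10 genes, of 49585 in the count table, were Fth1, Ftl1, Hmox1, Slc40a1, Slc11a1, Slc11a2, Tfrc, Ncoa4, Blvrb and Cp. They were chosen by their place in iron handling and with their levels and fold changes in the same libraries already known, so the values and counts of these 10 genes are a description and carry no test. All 10 passed the filter on low counts in every comparison.

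The libraries came from Kaede mice, whose cells carry a fluorescent protein that light converts from green to red, so that cells present in a lit tissue can be recognized later in the node. In the inflamed groups, Th1 cells from OT-II mice were transferred, the mice were immunized with ovalbumin in complete Freund's adjuvant, and 100 µg of heat-aggregated ovalbumin (HAO) was injected into the footpad or the ear pinna 10 days later. Viable CD45+ Kaede red+ cells were sorted from the joint or ear (joint nonmigrated and skin nonmigrated) or from the draining node (joint migrated and skin migrated). Both remaining groups were CD45+ cells migrated to the same nodes at steady state, titled with PBS for the joint and naive for the skin, so the steady-state groups may differ in more than the site. Titles of the joint ones also hold the letters KG, which the labels do not explain, and titles of the skin ones say nothing of conversion. Whether the cells of either steady-state group had been photoconverted is thus not settled, and this limits each comparison with them. Each of the 6 groups held 3 libraries, and for the inflamed groups the study calls these biological replicates, each from a pool of male and female mice. The CD45 gate admits every leukocyte, and in a bulk sample fewer cells of a type and less RNA per cell cannot be told apart. No cell was measured both before and after it left. Words such as fell, rose and change on migration therefore name differences between groups of cells.

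Iron is taken up as transferrin through the transferrin receptor, carried across membranes by metal transporters, stored inside ferritin shells of heavy and light chains, and exported by ferroportin. Macrophages also free iron from heme through heme oxygenase, which is known for their recycling of red cells. Iron regulatory proteins bind an RNA hairpin, the iron-responsive element, which blocks translation when it lies in the 5′ untranslated region and protects the transcript when it lies in the 3′ untranslated region.

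Iron-responsive elements were looked for as a bulged C, 5 stem bases, a 6-base loop that reads CAGTGN and 5 stem bases, on the transcript strand only, with both stem arms able to pair (GT pairs allowed), in the untranslated regions of coding transcripts of GENCODE M21 on the mm10 (GRCm38) genome. A match was found in 4 of the 10 iron genes, 160 of 21901 coding genes (0.731%) and 138 of the 14250 coding genes that were tested in any comparison (0.968%). A match is a description of letters and not a site shown to be bound. Elements whose stem departs from this pattern are missed, so a gene without a match, such as Slc11a2, may still carry one. The matches are printed because they show which members carry the letters of that hairpin and in which untranslated region. Bases run 5′ to 3′ and capitals mark the loop.
Fth1, 5′ untranslated region, exonic, chr19:9982732-9982760, plus strand: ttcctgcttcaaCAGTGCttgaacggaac
Ftl1, 5′ untranslated region, exonic, chr7:45459779-45459807, minus strand: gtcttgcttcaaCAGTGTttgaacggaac
Slc40a1, 5′ untranslated region, exonic, chr1:45925465-45925493, minus strand: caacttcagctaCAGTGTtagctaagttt
Tfrc, 3′ untranslated region, exonic, chr16:32631219-32631247, plus strand: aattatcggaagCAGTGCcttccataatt
Tfrc, 3′ untranslated region, exonic, chr16:32631598-32631626, plus strand: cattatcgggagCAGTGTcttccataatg
Tfrc, 3′ untranslated region, exonic, chr16:32631663-32631691, plus strand: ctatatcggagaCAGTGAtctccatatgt
Tfrc, 3′ untranslated region, exonic, chr16:32631710-32631738, plus strand: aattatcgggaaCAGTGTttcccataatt

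Assigned counts per library ran from 35554698 to 43814403 in the 6 inflamed joint libraries, from 19239531 to 22528895 in the 6 inflamed skin libraries and from 28577566 to 42938378 at steady state, so depth and site of inflammation went together and cannot be told apart. Levels are given as CPM, counts per 1000000 of a TMM-scaled library total, and 3 counts, used as the floor, equal 0.0616 to 0.18 CPM. Fold changes on the log2 scale and their standard errors (SE) are from edgeR's quasi-likelihood fit. Calls required an adjusted p (Benjamini-Hochberg, over all genes tested) under 0.001 and a change of more than 1 on the log2 scale in either direction. Ptprc, which encodes the CD45 of the gate, was at 1156 to 2531 CPM in every library. Markers of cells outside the gate were also read, with 4 fibroblast markers summing to 46.1 to 223.2 CPM in nonmigrated libraries and 4 keratinocyte markers to 23.8 to 281.5 CPM in skin nonmigrated libraries. The summed level of 11 macrophage markers was 8316 to 11521 CPM in joint nonmigrated and 3557 to 8855 CPM in skin nonmigrated cells, against 64.2 to 218.7 CPM in both migrated groups. The 7 neutrophil markers summed to 5142 to 15992 CPM in joint nonmigrated and 1584 to 2601 CPM in skin nonmigrated cells, against 13.4 to 89.8 CPM in migrated cells.

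Ferritin was the most abundant part of the group, and its level followed the compartment at both sites. Fth1 encodes the ferritin heavy chain, which oxidizes iron for storage (chromosome 19, 9980598 to 9985098, plus strand). Its level was 28520, 25552 and 19380 CPM in skin nonmigrated libraries, 4861, 5390 and 5224 CPM in joint nonmigrated libraries, 716, 751 and 848 CPM in joint migrated libraries and 879, 734 and 824 CPM in skin migrated libraries. All skin nonmigrated libraries lay above all joint nonmigrated libraries, and these above every migrated library, while the 2 migrated groups overlapped. In skin nonmigrated libraries Fth1 had the largest count of any gene, and it ranked 10 to 12 in joint nonmigrated and 93 to 150 in migrated libraries. The log2 fold change, migrated over nonmigrated, was -2.74 (SE 0.176) at the joint, a 6.68-fold lower level, and -4.92 (SE 0.195) at the skin, 30.2-fold lower.

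Ftl1 encodes the light chain, which helps mineral form inside the shell (chromosome 7, 45457944 to 45459884, minus strand). In skin nonmigrated libraries it was at 4013, 3934 and 4108 CPM, in joint nonmigrated libraries at 2065, 2270 and 1973 CPM, in joint migrated libraries at 427, 690 and 709 CPM and in skin migrated libraries at 656, 775 and 805 CPM. The order of the groups was that of Fth1, with narrower gaps. The log2 fold change, migrated over nonmigrated, was -1.79 (SE 0.184) at the joint and -2.43 (SE 0.189) at the skin. Exons of Ftl1 overlap those of Gm22133 on the same strand and Gm10252 on the other, and the processed copy Ftl1-ps1 had a count that was 0.401 to 0.709% of that of Ftl1. Reads that fit several places were left out when the authors counted, which can lower the counts of genes with such copies. Whether strand was used in counting is not settled by the sources used here, so reads shared by genes on opposite strands cannot be told apart.

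The heavy and light chains together took 2.01 to 2.71% of all assigned counts in skin nonmigrated libraries, 0.605 to 0.648% in joint nonmigrated libraries and 0.127 to 0.166% in migrated libraries. Per kilobase of transcript, heavy over light chain was 7.41, 6.77 and 4.92 in skin nonmigrated libraries, 2.45, 2.47 and 2.76 in joint nonmigrated libraries, 1.75, 1.13 and 1.25 in joint migrated libraries and 1.4, 0.987 and 1.07 in skin migrated libraries. The ratio was thus highest where ferritin was most abundant and lowest in migrated cells. Steady-state nodes did not follow that order. Their ratios of 2.58 to 2.77 (joint) and 2.19 to 2.53 (skin) lay above those of every migrated library although ferritin took only 0.0818 to 0.155% of their counts.

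**Figure D1:**
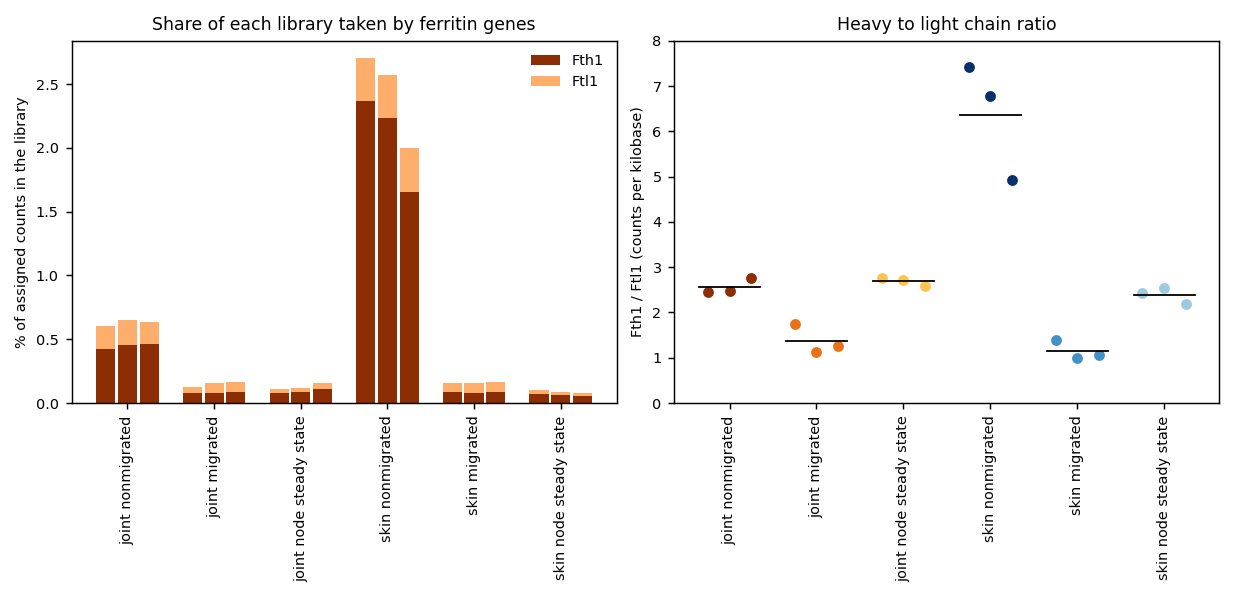
Share of assigned counts taken by Fth1 (dark) and Ftl1 (light) in each of 18 libraries (left, bars, percent), and the ratio of Fth1 to Ftl1 counts per kilobase of transcript (right, points, with group means as lines). Skin nonmigrated libraries stand highest on both axes, and migrated libraries have the lowest ratios, from 0.987 to 1.75.

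Ncoa4, the cargo receptor that delivers ferritin to lysosomes for iron release, did not share the ferritin pattern. Its level was 61.7, 76.1 and 86.8 CPM in joint nonmigrated, 56.7, 82.5 and 75 CPM in joint migrated, 60.4, 75.7 and 79.6 CPM in skin nonmigrated and 83.1, 101 and 111 CPM in skin migrated libraries. The joint groups overlapped, and skin migrated libraries lay just above skin nonmigrated ones. The log2 fold change, migrated over nonmigrated, was -0.07 (SE 0.176) at the joint and 0.45 (SE 0.177) at the skin, neither called. With total counts as the only scaling, the value at the joint turned to 0.24.

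Of the members tied to heme breakdown, Hmox1 and Blvrb were far lower in migrated cells. Hmox1, heme oxygenase 1, opens the heme ring and frees its iron (chromosome 8, 75093621 to 75100589). It was at 1235, 854 and 1664 CPM in skin nonmigrated and 305, 370 and 370 CPM in joint nonmigrated libraries, against 4.83, 13.3 and 12 CPM in joint migrated and 7.73, 4.94 and 8.69 CPM in skin migrated libraries. No nonmigrated library came near a migrated library, and the log2 fold change was -5.11 (SE 0.404) at the joint and -7.46 (SE 0.452) at the skin. Blvrb, biliverdin reductase B, was at 66.3, 82.4 and 59.1 CPM in joint nonmigrated and 126, 98.8 and 163 CPM in skin nonmigrated libraries. In migrated libraries it was at 14, 11.4 and 12.2 CPM (joint) and 10, 9.94 and 10.9 CPM (skin). Its log2 fold changes were smaller, at -2.47 (SE 0.183) and -3.65 (SE 0.195). Hmox2 and Blvra, heme breakdown genes that are not members, changed less, with a median log2 fold change of -1.15 (joint) and -0.82 (skin).

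The genes of iron export had few reads, and ferroportin lay apart between the compartments where ceruloplasmin overlapped at the skin. Slc40a1 encodes ferroportin, the iron exporter (chromosome 1, 45908068 to 45926523). Its level was 19, 31 and 51.3 CPM in joint nonmigrated, 43.5, 66.6 and 26 CPM in skin nonmigrated, 0.883, 2.66 and 3.22 CPM in joint migrated and 0.931, 0.499 and 0.488 CPM in skin migrated libraries. The nonmigrated groups overlapped, and both lay above both migrated groups. Log2 fold changes, migrated over nonmigrated, were -3.91 (SE 0.529) at the joint and -6.14 (SE 0.631) at the skin, where migrated libraries held only 10 to 20 counts. Cp encodes ceruloplasmin, a copper oxidase that loads exported iron onto transferrin. It was at 11.9, 13.9 and 11.8 CPM in joint nonmigrated and 1.07, 0.818 and 1.33 CPM in joint migrated libraries, a log2 fold change of -3.54 (SE 0.799) that was not called. Skin nonmigrated libraries were spread over 2.4, 0.702 and 11.7 CPM, and skin migrated libraries, at 0.838, 0.499 and 0.0886 CPM, overlapped with them. Without replicate 3, the high one, the Cp log2 fold change at the skin went from -3.38 (SE 0.885) to -1.71, and without replicate 2, the low one, it was -3.89 and was called. Exons of Cp overlap those of Hps3 on the other strand.

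Of the transporters of the endosome and phagosome, Slc11a1 and Slc11a2 diverged. Slc11a1 (Nramp1) moves metal ions out of phagosomes and is known from macrophages and neutrophils. Its level was 358, 413 and 371 CPM in joint nonmigrated and 331, 327 and 465 CPM in skin nonmigrated libraries, against 2.03, 4.35 and 7.18 CPM in joint migrated and 6.66, 4.7 and 7.76 CPM in skin migrated libraries. It had the lowest fold change of the 10 genes at the joint, a log2 value of -6.39 (SE 0.417), and stood at -5.88 (SE 0.41) at the skin. Slc11a2 (DMT1), which passes iron from endosomes to the cytosol in most cells, ranged from 37.9 to 66.1 CPM over all 18 libraries. Its log2 fold change was -0.10 (SE 0.136) at the joint and -0.41 (SE 0.137) at the skin, and neither was called. The joint groups overlapped, but at the skin every migrated library (38.2 to 43.4 CPM) lay below every nonmigrated library (47.9 to 66.1 CPM). With total counts as the only scaling, the value at the joint turned to 0.21. Exons of Slc11a2 overlap those of Gm5475 on the other strand.

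Tfrc, the transferrin receptor for iron uptake and the member with 4 matches in its 3′ untranslated region, was in the same range in most groups. It was at 43.9, 53.5 and 81.8 CPM in joint nonmigrated, 48.3, 44.1 and 57.2 CPM in joint migrated, 122, 162 and 82.8 CPM in skin nonmigrated and 64.2, 42.4 and 40.6 CPM in skin migrated libraries. The joint groups overlapped, with a log2 fold change of -0.26 (SE 0.278) that was 0.05 with total counts as the only scaling. At the skin no library overlapped between compartments, and the log2 fold change was -1.32 (SE 0.284), not called, although without skin nonmigrated replicate 3 it was -1.53 and was called. The proliferation markers Mki67, Top2a and Cdk1 summed to 409.9 to 746.6 CPM in migrated and 109.6 to 620.2 CPM in nonmigrated libraries.

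**Figure D2:**
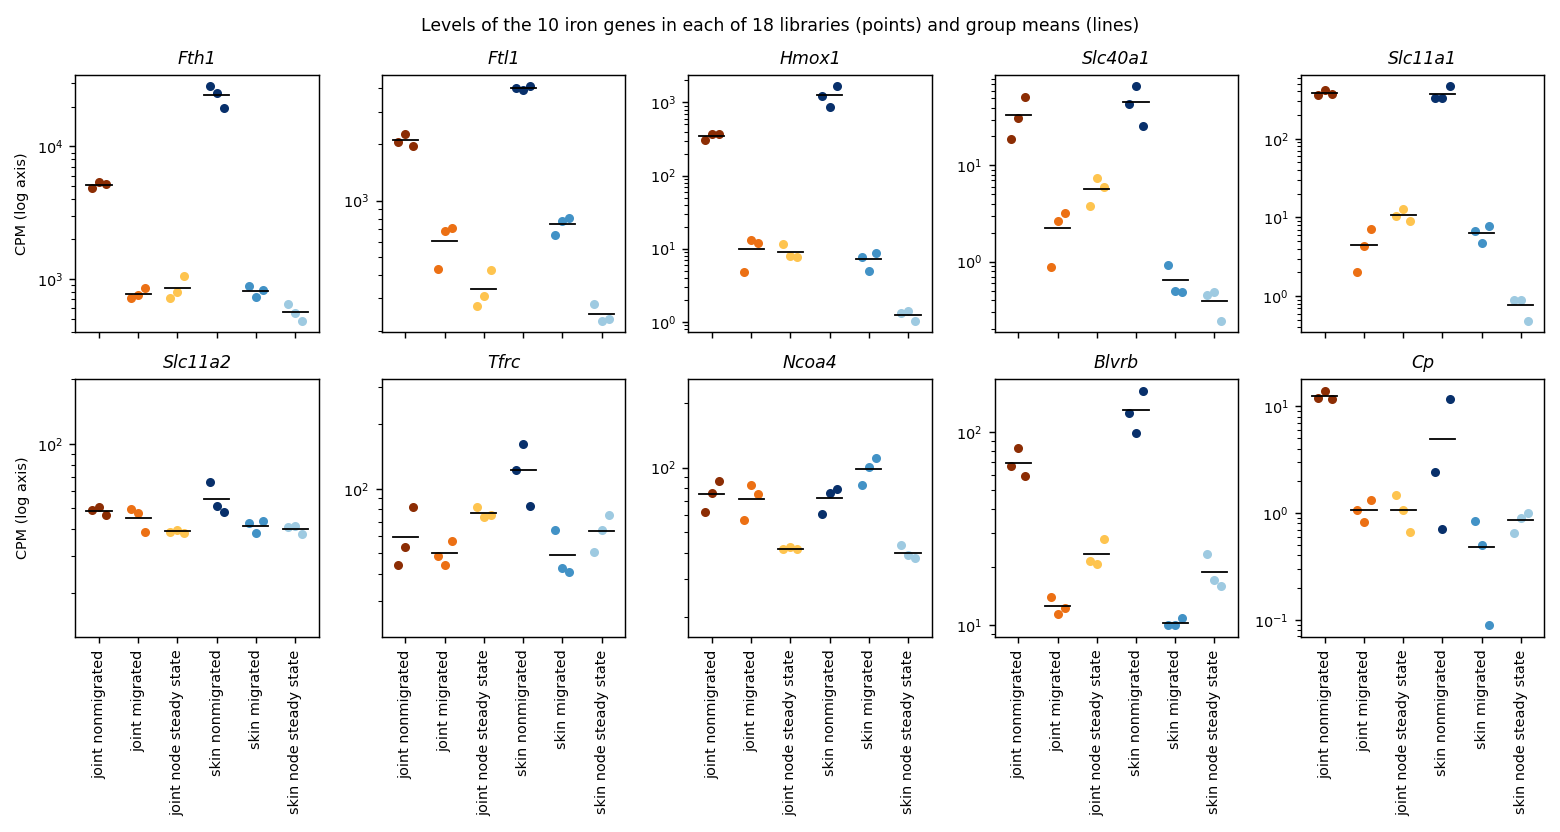
CPM of each of the 10 iron genes on a log axis in the 3 libraries (points) of each of 6 groups, with group means as lines. For Fth1, Ftl1, Hmox1, Slc40a1, Slc11a1 and Blvrb, all nonmigrated libraries lie above all libraries from the nodes, whereas Slc11a2 stays between 37.9 and 66.1 CPM.

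Counted together, 6 of the 10 genes (Fth1, Ftl1, Hmox1, Slc40a1, Slc11a1 and Blvrb) were called lower in joint migrated than in joint nonmigrated cells and none higher, where 12.6% of the 16777 genes tested were called lower and 8.8% higher. The same 6 were called lower at the skin and none higher, where 12.4% of all genes were called lower and 8.49% higher. The median log2 fold change over the 10 genes was -2.60 at the joint and -3.52 at the skin, beside 0.02 and 0.01 over all genes tested. Since these genes were taken up with the direction known, nothing is read from the counts. Scaling by total counts alone moved the median over all genes to 0.33 at the joint and 0.28 at the skin, and the share of calls that were higher in migrated cells from 41.2% to 58.4% and from 40.6% to 57%, while the 6 genes were called lower at both sites as before. Between tissue and node the called genes went the same way as the macrophage and neutrophil marker sums given above. Monocyte, platelet and fibroblast marker sums were also lower in migrated cells at both sites, and dendritic, T and B cell sums were higher. Between the nonmigrated groups the called genes did not follow the macrophage and neutrophil sums, as Fth1 was higher at the skin. The part of cell types in these differences was not tested. Erythroid markers, a source of heme, summed to 18.8 to 32.2 CPM in joint nonmigrated and 4.74 to 41.7 CPM in skin nonmigrated libraries, and to 0.488 to 27.1 CPM in migrated libraries, with Slc4a1 at or below 3 counts in every library of both migrated groups and of skin nonmigrated cells.

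**Figure D3:**
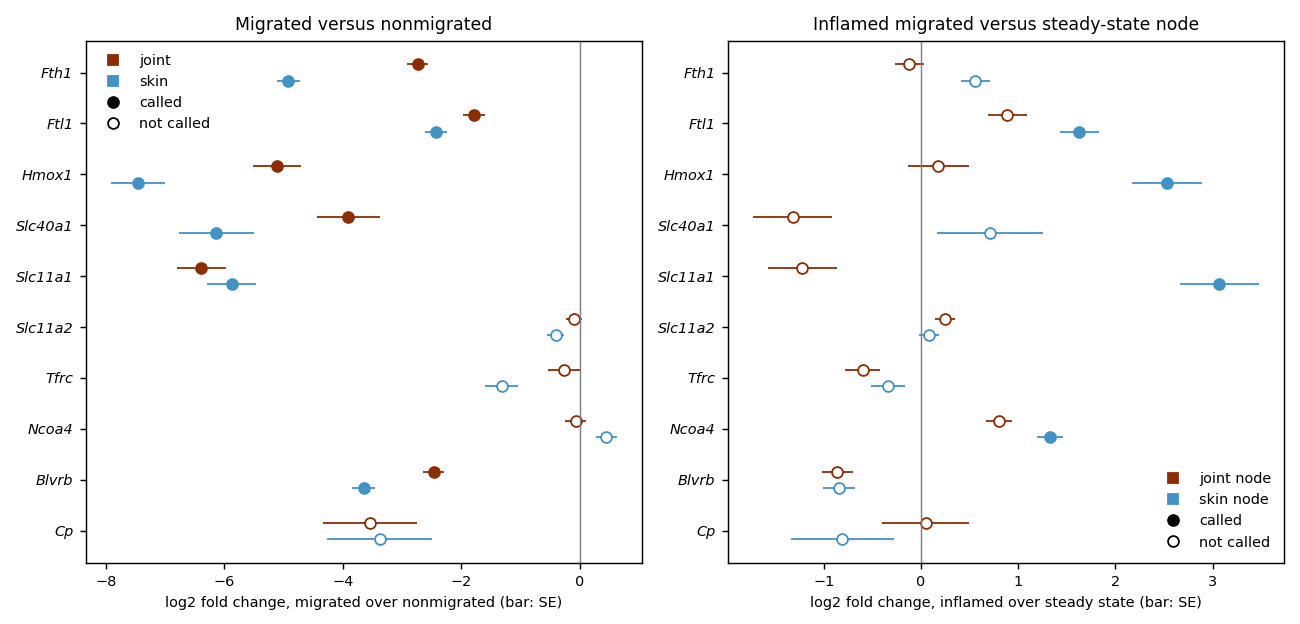
Log2 fold change of the 10 iron genes with its SE (horizontal bars), for migrated over nonmigrated cells (left) and inflamed migrated over steady-state node cells (right), at the joint (brown) and the skin (blue). Filled points were called: 6 genes lower at each site on the left, and 4 genes higher in the skin node only on the right.

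The other genes of iron and heme handling were a list of 54 set by role and not by their values, of which 48 were tested. That list too was made with earlier results of these data known, so its counts are a description. In joint migrated cells 17 were called lower than in nonmigrated cells and none higher, and the median log2 fold change of the 48 was -0.74. At the skin 12 were called lower and 2 higher, with a median of -0.54. Over all genes tested the shares called lower and higher were the 12.6% and 8.8% (joint) and 12.4% and 8.49% (skin) given above, with medians of 0.02 and 0.01. Counts for the roles within the list rest on few genes, and nothing particular to a role is read from them. Adjusted p values below are edgeR's, by Benjamini-Hochberg over all genes tested.

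Of the 15 genes of uptake and reduction, 9 were called lower at the joint and 7 at the skin, beside 12.6% and 12.4% of all genes tested. Ltf (lactoferrin) and Lcn2 (lipocalin 2), iron-binding and siderophore-binding proteins of neutrophil granules, fell by 8.90 (SE 0.88, adjusted p 8.1e-06) and by 8.50 (SE 0.733, adjusted p 3.23e-06) on the log2 scale at the joint. Hp (haptoglobin), which binds free hemoglobin, was at 269, 373 and 553 CPM in joint nonmigrated and 2.73, 4.65 and 7.03 CPM in joint migrated libraries (log2 fold change -6.37, SE 0.398, adjusted p 4.3e-07). Its receptor Cd163 had a log2 fold change of -5.89 (SE 0.983, adjusted p 0.00036) at the joint and -7.13 (SE 1.12, adjusted p 0.000237) at the skin. Among the skin nonmigrated libraries Cd163 was at 20.4, 7.13 and 163 CPM, and without replicate 3 its log2 fold change was -4.92. The call of Cd163 was lost at the joint without any library but joint nonmigrated replicate 3 (log2 fold change -6.07 to -5.73), and at the skin without any of the migrated libraries (-7.55 to -6.91). Lrp1, which takes up heme bound to hemopexin among many ligands, fell by 6.38 (SE 0.441, adjusted p 8e-07) at the joint, and at the skin it fell by 5.32 (SE 0.421, adjusted p 1.69e-06). Trf, transferrin, fell by 3.37 (SE 0.476, adjusted p 0.000111) at the skin, where nonmigrated libraries stood at 12.7, 13.8 and 40.8 CPM and migrated libraries at 2.33, 1.75 and 2.44 CPM. At the skin Lcn2 fell by 6.90 (SE 0.733, adjusted p 1.38e-05) and Hp by 5.23 (SE 0.399, adjusted p 1.33e-06).

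Among the 7 tested regulators, 4 were called lower at the joint and 3 at the skin. Over all genes tested, 12.6% (joint) and 12.4% (skin) were called lower, and 8.8% and 8.49% higher. Of the 9 heme synthesis genes, 2 were called lower at the joint, while at the skin 1 was lower and 2 were higher. The higher pair was Uros, with a mean of 11.1 CPM in migrated and 4.23 CPM in nonmigrated cells (log2 fold change 1.39, SE 0.197, adjusted p 0.000113), and Cpox, with 22 and 9.5 CPM (1.20, SE 0.184, adjusted p 0.000193). Both encode enzymes of the porphyrin pathway. Cpox was not called without skin nonmigrated replicate 1 (1.12) or replicate 2 (1.11). Of the 11 mitochondrial iron genes only Slc25a37, which imports iron into mitochondria, was called, lower at both sites. Median log2 fold changes by role were lowest for uptake and reduction, at -3.37 (joint) and -2.71 (skin), and close to 0 for mitochondrial iron, at 0.01 and 0.12.

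**Figure D4:**
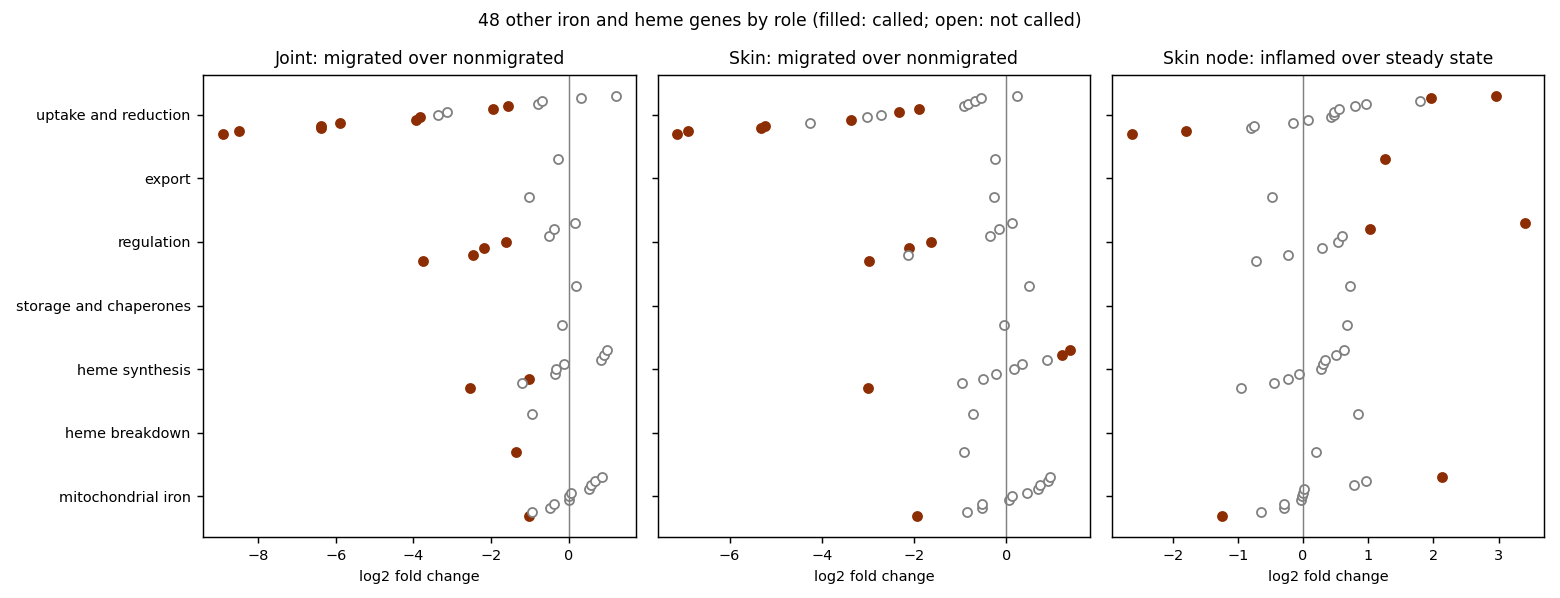
Log2 fold change of the 48 other iron and heme genes tested, by role, in joint migrated over nonmigrated cells (left), skin migrated over nonmigrated cells (middle) and inflamed over steady-state skin node cells (right). Filled points were called. Uptake and reduction genes spread farthest to the left in the left and middle panels, with 9 and 7 of 15 called lower (12.6% and 12.4% of all genes). Mitochondrial iron genes have medians near 0 there (0.01 and 0.12), with 1 called lower in each.

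Between the nonmigrated groups, joint against skin, Fth1 was the 1 member called, with a log2 fold change of -2.25 (SE 0.173), or 4.76-fold less at the joint, where 1.9% of all genes were called lower and 1.14% higher. Hmox1 (-1.85, SE 0.348), Tfrc (-1.04, SE 0.281), Ftl1 (-0.94, SE 0.181) and Blvrb (-0.90, SE 0.174) were also lower in every joint library than in every skin library, without a call. Cp (1.34, SE 0.735) was higher in every joint library, also without a call. Slc11a1 (0.02, SE 0.326), Ncoa4 (0.06, SE 0.177), Slc11a2 (-0.18, SE 0.137) and Slc40a1 (-0.43, SE 0.463) overlapped. With only these groups in the fit, no gene was called and the Fth1 value was not called either. Macrophage and neutrophil marker sums, given above, stood higher in joint than in skin nonmigrated cells by their medians, and those of macrophages overlapped. Dendritic cell markers summed to 212 to 329.6 CPM in joint and 377.2 to 756.7 CPM in skin nonmigrated libraries, T cell markers to 168.1 to 335.5 and 292.5 to 805.5 CPM, endothelial markers to 52.4 to 69.95 and 143.5 to 172.1 CPM, and keratinocyte markers to 0.299 to 1.78 and 23.8 to 281.5 CPM. These 4 sums thus stood higher at the skin, with only those of T cells overlapping. B cell markers stood higher at the joint, at 83 to 195.3 against 4.26 to 11.2 CPM. Monocyte, platelet, fibroblast, erythroid and proliferation marker sums overlapped between the sites. In skin migrated cells dendritic cell markers summed to 1474 to 1951 CPM and T cell markers to 1452 to 1526 CPM. The part of any of these cells in the Fth1 difference was not tested. Of the other iron genes, Ltf (log2 fold change 7.74, SE 0.841, adjusted p 0.000154), Lcn2 (4.00, SE 0.594, adjusted p 0.000835) and Hp (2.45, SE 0.33, adjusted p 0.000488) rose and Fbxl5 fell by 1.53 (SE 0.175, adjusted p 0.000219) at the joint. Ltf was at 1234, 2517 and 4275 CPM in joint nonmigrated and 10.4, 21.4 and 5.61 CPM in skin nonmigrated libraries. Fbxl5, an iron-sensing ubiquitin ligase component that directs breakdown of an iron regulatory protein, was at 240, 218 and 301 CPM in joint and 815, 774 and 590 CPM in skin nonmigrated libraries, all lower at the joint. The call of Ltf was lost without skin nonmigrated replicate 1 (7.63), that of Lcn2 without any of the nonmigrated libraries but skin replicate 3 (3.50 to 4.59), that of Hp without joint replicates 2 or 3 or skin replicates 1 or 2 (2.14 to 2.53), and that of Fbxl5 without joint replicates 1 or 2 or skin replicate 1 (-1.48 to -1.43).

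The migrated groups, joint against skin, had no call among the 10 members, among the other iron genes or among all 16777 genes tested (0% higher and 0% lower), although 2770 genes had an unadjusted p under 0.05 with edgeR and DESeq2's Wald test called 181. The largest difference among members was that of Slc40a1, with a log2 fold change of 1.81 (SE 0.615) and overlapping groups. The values of Fth1 (-0.07, SE 0.165), Tfrc (0.03, SE 0.279) and Slc11a2 (0.13, SE 0.137) were smaller than their errors. Ncoa4 was lower (-0.46, SE 0.176) and Blvrb higher (0.29, SE 0.18) in every joint than in every skin migrated library, without a call. Ftl1 (-0.29, SE 0.179), Hmox1 (0.50, SE 0.357), Slc11a1 (-0.50, SE 0.355) and Cp (1.18, SE 0.885) overlapped.

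Set against each other, the differences between migrated and nonmigrated cells varied by site for Fth1. Its log2 fold change was smaller in size at the joint by 2.18 (SE 0.237, joint minus skin). Fth1 was the 1 member called in that contrast, where 0.0656% of all genes were called higher and 0.0536% lower. Hmox1 (2.34, SE 0.496), Slc40a1 (2.24, SE 0.773), Blvrb (1.19, SE 0.25), Tfrc (1.06, SE 0.395), Ftl1 (0.65, SE 0.254) and Slc11a2 (0.31, SE 0.193) were not called, nor were Slc11a1 (-0.52, SE 0.482), Ncoa4 (-0.51, SE 0.249) and Cp (-0.16, SE 1.21). The Fth1 call was lost in 14 of 20 alternatives, among them leaving out any library but skin nonmigrated replicate 3, while the value ranged from 2.05 to 2.32.

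Inflamed migrated cells were also set against the steady-state cells of the same node. In the steady-state skin node Hmox1 was at 1.3, 1.41 and 1.04 CPM, and skin migrated cells stood at a log2 fold change of 2.53 (SE 0.363) above it. Slc11a1 was at 0.897, 0.903 and 0.489 CPM there, 3.07 (SE 0.409) below skin migrated cells on the log2 scale. Ftl1 stood at 279, 227 and 230 CPM and Ncoa4 at 43.5, 39 and 37.6 CPM in the steady-state skin node, with log2 fold changes of 1.63 (SE 0.204) and 1.33 (SE 0.136), inflamed over steady state. These 4 members were called higher in inflamed than in steady-state skin node cells and none lower, where 16.6% of the 17107 genes tested were called higher and 8.51% lower. Fth1, at 648, 553 and 484 CPM, differed by 0.56 (SE 0.152) without a call. Blvrb went the other way by -0.84 (SE 0.166), also without a call, from 23.4, 17 and 15.9 CPM at steady state. Slc40a1 (0.71, SE 0.542) was higher in every inflamed library, hardly apart from steady state and without a call. Slc11a2 (0.08, SE 0.103), Tfrc (-0.34, SE 0.178) and Cp (-0.81, SE 0.528) overlapped. Macrophage markers summed to 18.8 to 25.4 CPM at steady state and 113.4 to 218.7 CPM after inflammation, dendritic cell markers to 479.8 to 591.3 CPM and 1474 to 1951 CPM, and B cell markers to 1857 to 2589 CPM and 91.7 to 157.3 CPM, and their part in these values was not tested.

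At the joint no member was called between inflamed migrated and steady-state node cells, where 12.4% of all genes were called higher and 3.5% lower. Ncoa4 was at 41.5, 42.5 and 41.5 CPM at steady state, below each joint migrated library, with a log2 fold change of 0.80 (SE 0.134). Ftl1 was at 271, 308 and 425 CPM and differed by 0.89 (SE 0.2), and it was called without joint migrated replicate 1 (1.06) or steady-state replicate 3 (1.12). Slc40a1, at 3.83, 7.49 and 5.95 CPM, and Slc11a1, at 10.4, 12.8 and 9.08 CPM, lay above every joint migrated library, with log2 fold changes of -1.32 (SE 0.404) and -1.22 (SE 0.353). Tfrc, at 82.5, 73.6 and 75.2 CPM at steady state, also lay above every joint migrated library (-0.60, SE 0.177), as did Blvrb, at 21.4, 20.6 and 27.9 CPM (-0.86, SE 0.161). Hmox1, at 11.7, 7.85 and 7.66 CPM, and Fth1, at 722, 801 and 1051 CPM, overlapped with joint migrated cells (0.18, SE 0.318, and -0.12, SE 0.151). Slc11a2 (0.25, SE 0.102) and Cp (0.05, SE 0.449) overlapped too. Neutrophil markers summed to 418.4 to 820.5 CPM at steady state and 34.5 to 89.8 CPM in joint migrated cells. B cell markers summed to 2961 to 3462 CPM and 503.6 to 698.8 CPM, and dendritic cell markers to 478.8 to 785.6 CPM and 944.1 to 2203 CPM. Macrophage marker sums overlapped. The part of these cells in the joint node values, here and for the other iron genes below, was not tested. The comparisons in the nodes share the migrated libraries with those between tissue and node.

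Of the 48 other iron genes tested, 5 (10.4%) were called in the joint node and 9 (18.8%) in the skin node. Over all genes these shares were 15.9% and 25.1%, so both lay below the background when the directions are pooled. Iscu, a scaffold for iron-sulfur clusters, was at 30, 34.9 and 44.6 CPM in the steady-state joint node and 81.5, 138 and 150 CPM in joint migrated cells (log2 fold change 1.78, SE 0.207, adjusted p 1.04e-05), and it rose by 2.13 (SE 0.21, adjusted p 1.32e-06) in the skin node. Slc25a37 fell by 1.09 (SE 0.102, adjusted p 1.36e-06) in the joint node and by 1.25 (SE 0.103, adjusted p 2.29e-07) in the skin node. In the joint node 1 of the 48 tested was called higher and 4 lower, where 12.4% of all genes were called higher and 3.5% lower. The share called lower thus lay above that of all genes. Besides Slc25a37, those called lower were Ltf (-4.02, SE 0.45), Lcn2 (-3.95, SE 0.353) and Hp (-2.71, SE 0.307), with adjusted p of 7.59e-06, 9.53e-07 and 8.21e-06. In the skin node 6 were called higher and 3 lower, where 16.6% of all genes were called higher and 8.51% lower. Hfe, a partner of the transferrin receptors, rose by 3.40 (SE 0.241, adjusted p 6.09e-08) from 0.92, 1.13 and 0.917 CPM, and Lrp1 rose by 2.96 (SE 0.403, adjusted p 2.62e-05), Trf by 1.96 (SE 0.344, adjusted p 0.000246) and the heme exporter Flvcr1 by 1.25 (SE 0.17, adjusted p 2.59e-05). Cybrd1, a ferric reductase, fell by 2.63 (SE 0.338, adjusted p 1.61e-05), and Cd163 fell by 1.79 (SE 0.354, adjusted p 0.000629) from 1.57, 1.85 and 1.34 CPM at steady state. The calls of Trf and Cd163 were lost without any of the steady-state skin libraries or of 2 migrated ones (replicates 1 and 3 for Trf, 1 and 2 for Cd163), at log2 values of 1.75 to 2.03 and of -1.94 to -1.62.

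The steady-state nodes differed from each other in 3 members, all called higher in the joint node, where 1.4% of all genes were called higher and 0.0409% lower. Log2 fold changes, joint over skin node, were 3.83 (SE 0.475) for Slc40a1, 3.78 (SE 0.41) for Slc11a1 and 2.84 (SE 0.359) for Hmox1, and no library of these genes overlapped between the nodes. In the skin node Slc40a1 was at 0.449, 0.486 and 0.244 CPM, or 8 to 21 counts. Fth1 (0.60, SE 0.152) was higher in every joint node library without a call. Ftl1 (0.44, SE 0.199), Cp (0.31, SE 0.459), Blvrb (0.30, SE 0.16), Tfrc (0.27, SE 0.176), Ncoa4 (0.05, SE 0.134) and Slc11a2 (-0.05, SE 0.102) overlapped. Without skin node replicate 1 or replicate 3 none of the 3 members was called, and without replicate 2 only Slc11a1 was. Without joint node replicate 1 Hmox1 lost its call (2.61), and without replicate 2 or 3 Slc40a1 did (3.59 and 3.80). Over these and the skin replicates, values that lost the call ran from 2.61 to 2.92 for Hmox1, 3.59 to 3.99 for Slc40a1 and 3.56 to 3.90 for Slc11a1. Of the other iron genes 5 were called higher in the joint node and none lower. Lcn2 was at 53, 77.9 and 93.4 CPM there and at 0.942, 0.602 and 0.458 CPM in the skin node (log2 fold change 6.77, SE 0.429, adjusted p 1.59e-06). Ltf (6.36, SE 0.526, adjusted p 7.67e-06), Hp (4.97, SE 0.354, adjusted p 2.92e-06), Lrp1 (3.24, SE 0.404, adjusted p 0.000213) and Hfe (1.81, SE 0.235, adjusted p 0.000305) were also higher. Lrp1 and Hfe lost their calls without any of the skin node libraries or without joint node replicate 2, and Hfe also without joint node replicate 1, at 3.05 to 3.49 and 1.56 to 1.91. Neutrophil markers summed to 418.4 to 820.5 CPM in the joint and 11.1 to 17.9 CPM in the skin node at steady state, and macrophage markers to 96 to 136.8 CPM and 18.8 to 25.4 CPM. The part of these cells in the difference was not tested.

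Per kilobase of transcript, a scale on which genes can be set side by side, the order of mean levels in skin nonmigrated cells was Fth1 (26355 CPM per kilobase), Ftl1 (4151), Hmox1 (797.3), Slc11a1 (161.7), Blvrb (125.7), Tfrc (25), Ncoa4 (21.5), Slc11a2 (18.2), Slc40a1 (13.5) and Cp (1.22). In skin migrated cells Fth1 (874.4) and Ftl1 (770.2) stayed on top, followed by Ncoa4 (29.4), Slc11a2 (13.7), Tfrc (10) and Blvrb (10), with Hmox1 at 4.54 and Slc40a1 at 0.19. Hmox1 thus went from the third to the seventh place. Neighbours such as Tfrc, Ncoa4 and Slc11a2 in skin nonmigrated cells overlapped between libraries, so their order is not fixed.

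Over the 18 libraries, which share these few groups and are therefore not independent points, the genes most like 3 of the members were ranked by Pearson's r of log2(CPM + 1), as a description. For Fth1 these were Grina (0.996), P2ry2 (0.994), Upp1 (0.994), Fam114a1 (0.994) and Zfp503 (0.993). For Slc40a1 they were Trpm2 (0.984), Mgam (0.983), Chil1 (0.981), Csf3r (0.98) and Trem1 (0.98), of which Csf3r was among the neutrophil markers. For Tfrc the values were lower, from 0.939 (Eif5) to 0.908 (Cd164). Within the 10 genes Hmox1 was most like Slc11a1 (0.977) and Fth1 (0.968), and Ncoa4 and Tfrc were the least alike (-0.229).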

How the data were processed

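Raw integer counts per gene were deposited for 18 bulk RNA-seq libraries of sorted mouse leukocytes. According to the methods and the submitters' processing notes, the authors checked reads with FastQC, trimmed them with Trim Galore, aligned them with TopHat2 to mm10 with a stated release of the mouse transcriptome and counted uniquely placed reads with HTSeq at default settings. Reads that fit several places were left out, which lowers counts of genes with close copies. Versions of these tools are not given in the sources used here. Strand settings are not stated beyond the default.

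The 5 summary lines were removed, leaving 49585 genes, of which 49326 matched a symbol in GENCODE M21 and 18650 were 0 in all libraries. Libraries of a group differed far beyond counting noise (chi-square per degree of freedom 14.7 to 117), so none was a copy. The study calls the 3 libraries of each inflamed group biological replicates from pools of mice. For the steady-state groups nothing states this, and p values then measure only the spread between these libraries, which may be technical. edgeR 4.0.16 in R 4.3.3 (TMM, filterByExpr with a minimum count of 10, quasi-likelihood F test) was fitted to the 12 inflamed libraries (16777 genes) and to the 12 node libraries (17107 genes), with group as the only factor. The study names DESeq2. Here its Wald test (1.42.0) was an alternative, as were an adjusted p under 0.05, other scalings, filters and sets of libraries, a replicate block and leaving out each library. An SE was obtained from F and the size of the fitted change. Lengths are those of the principal transcript. The fit was tested on simulated data. Python 3.11.15, pandas 2.3.3 and matplotlib 3.10.9 made tables and figures.

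The members and lists were chosen with earlier results of these data known. All 10 members are named in every comparison. Of the 54 other iron and heme genes, up to 5 called genes with the largest absolute log2 fold change in each direction were named per comparison. Likeness lists were made for Fth1, Slc40a1 and Tfrc, set by name. The value of 1 marker gene is not reported here.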

Additional observations from a re-analysis of the deposited data

Results flagged for a closer look

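The difference in Fth1 between migrated and nonmigrated cells was smaller at the joint than at the skin. The log2 difference was 2.18 (SE 0.237, joint minus skin), in the contrast that sets both sites against each other. Fth1 was taken up with that difference known, so it stands as a description. The difference lay in the nonmigrated cells, at a mean of 5158 CPM (SD 271, n = 3) at the joint and 24484 CPM (SD 4663, n = 3) at the skin, whereas the migrated cells were at 771.3 CPM (SD 68.5, n = 3) and 812.3 CPM (SD 73.1, n = 3).

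Of the 10 members and 54 other iron and heme genes, 3 went opposite ways in the nodes without overlap. In these, every inflamed migrated library lay below every steady-state library in the joint node and above every one in the skin node. The share of all genes with this pattern was not counted, so nothing particular to iron genes is read from it. These differences between the nodes were not tested. The log2 fold change at the joint minus that at the skin was -4.29 for Slc11a1, -2.03 for Slc40a1 and -3.68 for Hp. For Slc40a1 the skin groups were hardly apart, with the lowest migrated library at 0.488 CPM and the highest steady-state library at 0.486 CPM. Neutrophil markers were at 418.4 to 820.5 CPM in the steady-state joint node against 11.1 to 17.9 CPM in the steady-state skin node.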

How the results depend on the processing

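Fth1, Ftl1, Hmox1, Slc40a1, Slc11a1 and Blvrb were called lower in migrated cells at both sites under each of the 15 alternatives run per site. With an adjusted p under 0.05, calls among all genes were 5757 (joint, migrated against nonmigrated), 5940 (skin), 2400 (nonmigrated, joint against skin), 191 (migrated), 1029 (change on migration, joint minus skin), 4143 (joint node against steady state) and 665 (steady-state nodes), with 3, 3 and 2 iron genes called between nonmigrated groups, in the change on migration and in the joint node, and 1 and 3 other iron genes between migrated groups and in the change on migration. DESeq2's Wald test called 1546 genes between nonmigrated and 181 between migrated groups, 648 in the change on migration and 492 between steady-state nodes, with 2 iron genes (nonmigrated), 3 (change on migration) and 1 and 2 other iron genes (migrated, change on migration). Without a low-count filter, calls in these 4 contrasts were 1014, 61, 290 and 521, with 2 iron genes between nonmigrated groups, 1 in the joint node and 1 other iron gene in the change on migration. With all 18 libraries in the fit they were 1104, 38 and 301 in the first 3, with 2 iron genes (nonmigrated) and 2 other iron genes (change on migration). With only the groups compared, 2111 genes were called at the skin and 0 between nonmigrated groups, with 0 iron and 0 other iron genes there. In the change on migration, total counts gave 38 calls, and DESeq2 size factors or 10 counts in every library of a group left 0 iron genes.

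Leaving out 1 library at a time gave 120 to 1372 calls between nonmigrated groups (other iron genes 0 to 6), 0 to 22 between migrated groups, 7 to 330 in the change on migration (iron genes 0 to 1, other iron genes 0 to 1) and 83 to 180 between steady-state nodes (iron genes 0 to 2, other iron genes 3 to 5), with 0 to 1 iron genes in the joint node. The highest values, 1372 and 330, were without skin nonmigrated replicate 3. The cause of these changes was not tested.

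Deviations of same-numbered migrated and nonmigrated libraries correlated by 0.021, 0.254 and 0.195 at the joint and by 0.173, 0.0735 and 0.148 at the skin, all above 0 but with 1 of 3 at each site under the 0.1 asked of every pair, and between other groups by -0.353 to 0.19. The numbers were therefore not used as pairs in the main test. As a hint from the data, 5 of 6 libraries at the joint and 6 of 6 at the skin correlated best with their own number between migrated and nonmigrated cells. Between the sites it was 0 of 6 for nonmigrated but 5 of 6 for migrated joint and skin libraries, so the match was not confined to cells of the same site. With the replicate block, calls were 204 between nonmigrated groups (2 other iron genes), 7 between migrated groups, 1 in the change on migration (0 iron genes) and 163 between steady-state nodes (3 other iron genes), and the other counts moved by no more than 1.5 times. Named genes that were not called with the block were Cpox at the skin, Ltf and Lcn2 between nonmigrated groups, Fth1 in the change on migration, Cd163 in the skin node, and Hmox1, Lrp1 and Hfe between steady-state nodes, all with the direction as before. Low counts limit Slc40a1 and Cp most, which were at 2 to 21 counts in some libraries of the skin and its node.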
